A study of Mus musculus with 6 samples.

Results

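Amino acid and neurotransmitter transporter genes were examined in mOPCs after knockdown of Qk. The genes were taken by symbol: every gene of the solute carrier families Slc1, Slc3, Slc6, Slc7, Slc36, Slc38 and Slc43 whose symbol is the family name, the letter a and a number. This gave 59 genes out of 23038 in the files, and the rule reads the symbol alone. Of these 59, 35 passed the filter on low counts and were tested, while the other 24 never exceeded 0.316 RPKM in any library and included Slc6a12, with no tag in any library.

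The mOPCs are primary oligodendrocyte precursor cells, purified by immunopanning from mouse embryos. Cells that received control siRNA gave 3 libraries (siNC 1 to 3), and cells that received siRNA against the Qk gene, which encodes the Qki RNA-binding proteins, gave the other 3 (siQk 1 to 3). The study describes biological replicates and the use of 3 different siRNAs against Qk, but the labels do not say which siRNA went with which library. Cells were collected 3 days after transfection, and poly-A selected RNA was sequenced in paired-end reads. The strain and sex of the embryos are not given in the sources used here.

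Amino acid transporters sit in the plasma membrane or in lysosomes. Some use the sodium gradient to drive uptake (Slc1, Slc6 and Slc38), while others exchange one amino acid for another (many Slc7 members, which pair with a heavy chain of the Slc3 family). In the brain, glutamate, GABA, glycine and monoamines are cleared from the extracellular space by Slc1 and Slc6 transporters, mostly on glia and on the nerve endings that release them. Oligodendrocyte lineage cells are known for glutamate uptake, for cystine uptake that feeds glutathione, and for making creatine.

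Library totals ranged from 58166490 to 141045937 tags (a tag is the sequenced fragment counted by the authors' tool). Qk was at 209, 206 and 163 RPKM in siNC 1 to 3 and at 51.3, 76.6 and 36.2 RPKM in siQk 1 to 3, where RPKM divides the tags of a gene by its exon length and by the total of the library. All 3 siQk libraries were below every siNC library (log2 fold change -1.98, SE 0.28, edgeR FDR 0.00311). An exact two-sided permutation test on RPKM gave p = 0.1, the smallest that 3 libraries against 3 allow. The ribosomal RNA gene Rn45s took 3.11% of the tags in siNC 1 and 0.169 to 0.389% in the other libraries. Oligodendrocyte markers were lower in siQk (7 of 9 called), with a summed level of 3307 to 5824 RPKM in siNC and 1363 to 2065 RPKM in siQk, and siNC 3 was the lowest siNC library. OPC markers summed to 1057 to 1133 RPKM in siNC and to 1283 to 1445 RPKM in siQk, with 4 of 10 called higher and 1 lower. Over all tested genes the rule for calls given below called 31%, 13.8% higher and 17.2% lower. In RNA from whole cultures, fewer cells of a type and less RNA per cell cannot be told apart.

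Of the 35 tested transporter transcripts, 15 passed the test (42.9%), 6 of them higher and 9 lower in siQk. A transcript was called at an edgeR P below 0.01 together with a Benjamini-Hochberg FDR below 0.1 over all tested genes. By the same rule 31% of all 12505 tested genes were called, 13.8% higher and 17.2% lower. Glutamate, taurine and creatine uptake genes were among those that fell, and light chains of the large neutral and cationic amino acid exchangers were among those that rose. At 7 of the 35 genes (20%) the call came with a log2 change of 1 or more in size, against 7.21% of all tested genes. The median log2 fold change of the tested transporters was -0.02 and that of all tested genes was 0.01, while the median absolute change was 0.45 against 0.25. With library sizes used without TMM factors, the median of all genes was 0.16 and the 15 transporter calls split into 10 higher and 5 lower.

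**Figure D1:**
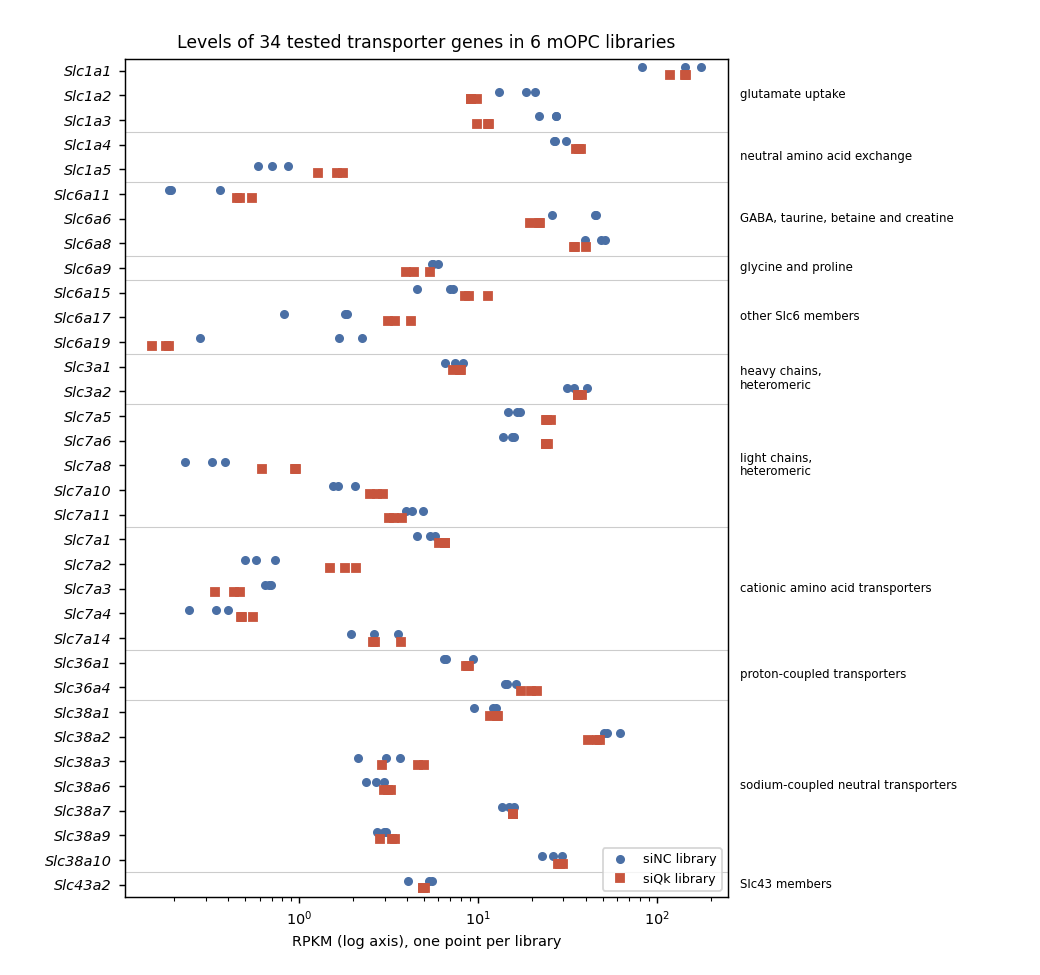
RPKM on a log axis of 34 of the 35 tested transporter genes, in rows ordered by role, with one circle per siNC library and one square per siQk library (n = 3 each). Slc1a1 is the most abundant, between 82.3 and 175 RPKM, and the ranges of Slc1a2, Slc1a3, Slc7a5, Slc7a6 and Slc7a2 do not overlap between groups.

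**Figure D2:**
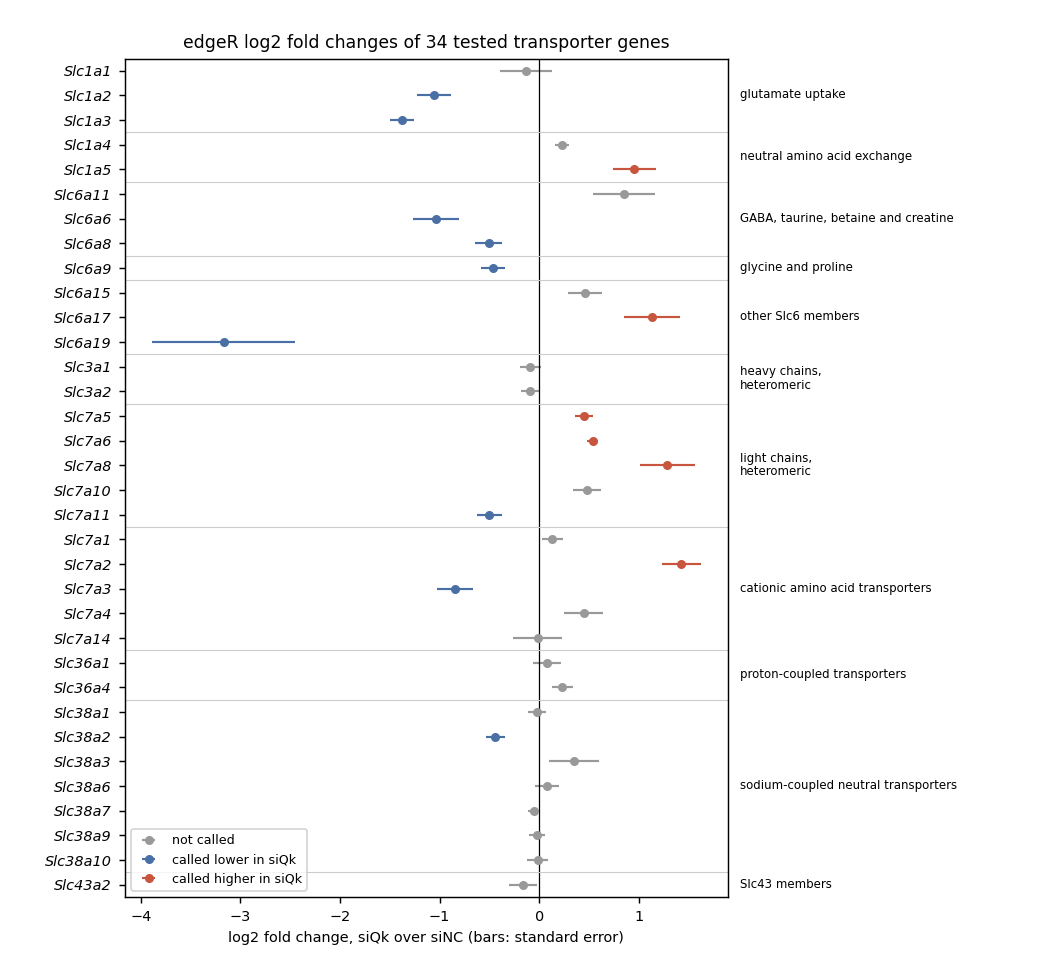
The edgeR log2 fold change of siQk over siNC for the same 34 genes, with bars of 1 standard error on either side, in blue where called lower (9), red where called higher (6) and grey where not called (19). Slc6a19 lies farthest to the left at -3.17 with the widest bar, and Slc7a2 farthest to the right at 1.43.

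Across the libraries, 29 of the 59 transporter genes had a mean over 1 RPKM in siNC, and 15 a mean over 10 RPKM. Summed RPKM over all members was 530 to 588 in siNC and 530 to 550 in siQk, so the totals overlapped on this scale. RPKM carries no TMM factor, while the fold changes do (factors of 0.899 to 0.987 in siNC and 1.04 to 1.07 in siQk). Ranges and sums in RPKM therefore stand higher in siQk, relative to siNC, than the fold changes do. RPKM ranges of the groups did not overlap for 22 of the 35 tested genes, 14 higher and 8 lower in siQk. Over all tested genes 58.3% did not overlap, 41.9% higher and 16.4% lower, so being higher in every siQk library was common in RPKM. Spread between replicates was unequal: the coefficient of variation was larger in siNC than in siQk for 30 of the 35 genes, with medians of 14.3% and 8.44%.

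Among the sodium-dependent glutamate uptake carriers, both glial members fell and the most abundant one was not called. Slc1a3 (GLAST, Entrez 20512, chr15:8634124-8710764, minus strand, mm10) was at 27.1, 22.0 and 27.4 RPKM in siNC 1 to 3 and at 9.87, 11.5 and 11.4 RPKM in siQk 1 to 3. Every siQk library was below every siNC library, and the means were 25.5 ± 3.03 and 10.9 ± 0.913 RPKM (SD, n = 3). The log2 fold change was -1.38 (SE 0.12, edgeR FDR 0.000821). Slc1a2 (the glutamate carrier also called Glt1, Entrez 20511, chr2:102658659-102790784, plus strand) was at 18.6, 13.0 and 20.9 RPKM in siNC and at 9.86, 9.07 and 9.09 RPKM in siQk. Its groups did not overlap either, siNC 2 being the closest to siQk, and the log2 fold change was -1.06 (SE 0.17, edgeR FDR 0.00486).

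Slc1a1, the carrier that takes up glutamate, aspartate and cysteine in neurons and in other cells, was the most abundant transporter transcript and made up 24.2% of the summed transporter RPKM on average over the libraries. It was at 144, 82.3 and 175 RPKM in siNC 1 to 3 and at 145, 118 and 143 RPKM in siQk 1 to 3. The siQk values lay inside the siNC range, which siNC 2 opened downward and siNC 3 upward. Its log2 fold change was -0.14 (95% confidence interval -0.76 to 0.48, FDR 0.698), and it was 0.013 with library sizes only and 0.065 without siNC 3. Of its exon bases, 31.9% overlap 4430402I18Rik on the opposite strand, which was at 13.4 to 25.7 RPKM in siNC and 18.0 to 21.7 RPKM in siQk, and the library kit does not mark strand. Slc1a6 and Slc1a7, the carriers of the cerebellum and retina, were not tested and stayed at or under 0.173 RPKM.

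Slc1a2 and Slc1a3 are also abundant in astrocytes, so the astrocyte markers are given beside them. Of 10 astrocyte markers, 8 were tested, of which 3 were lower (37.5%) and 1 was higher (12.5%) in siQk. Over all tested genes 17.2% were lower and 13.8% higher. Gfap (the astrocyte intermediate filament) had a log2 fold change of -2.95, Aldh1l1 (a folate enzyme) of -2.21 and Slc4a4 (a bicarbonate carrier) of -1.57, while Sox9 (a glial transcription factor) was at 0.42. The defining gap junction genes Gja1 and Gjb6 stayed at or under 0.013 RPKM in every library. The summed level of the 10 markers was 265 to 373 RPKM in siNC and 278 to 301 RPKM in siQk, so the sums overlapped. Most of this sum came from S100b and Aldoc, neither of them called. Their means in siNC and siQk were 140 and 157 RPKM for S100b and 94.9 and 108 RPKM for Aldoc. The part of astrocytes and of oligodendrocytes in the transporter results was not tested.

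**Figure D3:**
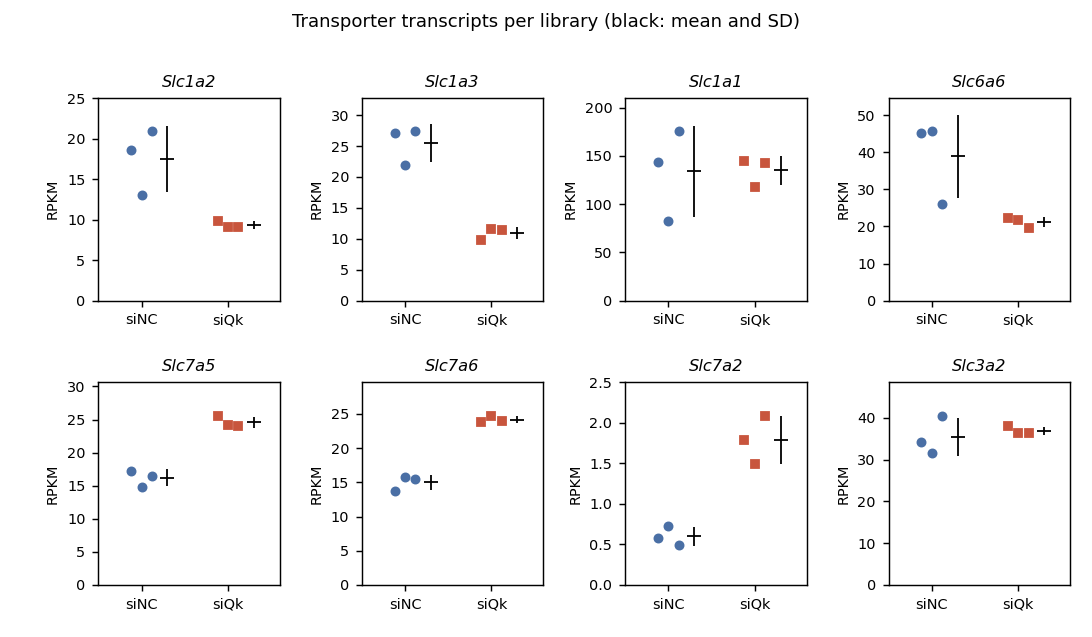
RPKM per library for 8 transporter genes, on linear axes that start at 0, with circles for siNC 1 to 3, squares for siQk 1 to 3 and black bars for the mean and SD (n = 3). The siQk squares lie below the siNC circles for Slc1a2, Slc1a3 and Slc6a6, above them for Slc7a5, Slc7a6 and Slc7a2, and among them for Slc1a1 and Slc3a2.

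Of the 2 neutral amino acid exchangers of the Slc1 family, Slc1a5 was called higher and Slc1a4 was not called. Slc1a5 (ASCT2, which exchanges glutamine and other neutral amino acids, Entrez 20514) was at 0.863, 0.702 and 0.586 RPKM in siNC and at 1.62, 1.75 and 1.27 RPKM in siQk. The groups did not overlap, at a low level throughout, with a log2 fold change of 0.96 (SE 0.22, edgeR FDR 0.0163). Its call was lost without siNC 2 (0.93), without siQk 1 (0.92) and without siQk 2 (0.87). Slc1a4 (ASCT1, which carries serine, alanine and cysteine, Entrez 55963) was far more abundant, at 26.9, 26.4 and 30.9 RPKM in siNC and 36.6, 35.4 and 37.8 RPKM in siQk. Its ranges did not overlap, but P was 0.0141 and so above the threshold (log2 fold change 0.23, SE 0.07, FDR 0.041). It was called with library sizes only (0.38), with DESeq2 (0.22), with no filter (0.26), at an FDR below 0.05 alone and without siNC 3 (0.28).

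Of the Slc6 carriers for GABA, taurine, betaine and creatine, 4 of 6 were tested and 2 fell, where 17.2% of all tested genes were called lower. Slc6a6 (the taurine transporter, Entrez 21366, chr6:91684053-91759066, plus strand) was at 45.1, 45.6 and 25.9 RPKM in siNC and at 22.1, 21.8 and 19.5 RPKM in siQk. siNC 3, the siNC library with the lowest summed oligodendrocyte markers, was close to siQk without reaching it, and whether the 2 are related was not tested. The log2 fold change was -1.04 (SE 0.23, edgeR FDR 0.0147), and the call was lost without siNC 1 (-0.87), siNC 2 (-0.93), siQk 2 (-1.05) or siQk 3 (-0.99). Slc6a8 (the creatine transporter, Entrez 102857, chrX:73673150-73682502, plus strand) was at 48.7, 51.4 and 39.4 RPKM in siNC and at 34.5, 34.8 and 39.9 RPKM in siQk. Here the ranges overlapped in RPKM, where no TMM factor is applied, siQk 3 being just above siNC 3. The log2 fold change of Slc6a8 was -0.51 (SE 0.13, edgeR FDR 0.0254), and the call was lost without siNC 1 (-0.43), siNC 2 (-0.45), siQk 1 (-0.47) or siQk 2 (-0.47), and with library sizes only (-0.35).

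Slc6a11 (a GABA carrier of astrocytes) was at 0.359, 0.186 and 0.192 RPKM in siNC and at 0.466, 0.446 and 0.546 RPKM in siQk. It was low throughout and higher in every siQk library, but not called (log2 fold change 0.85, SE 0.31, FDR 0.0712), and it was called with library sizes only and without siNC 1. Slc6a12 (the betaine carrier) had no tag, and Slc6a13 stayed at or under 0.0059 RPKM.

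Of the glycine and proline carriers, only Slc6a9 was abundant enough to test, and it fell. Slc6a9 (GLYT1, glycine uptake into glia, Entrez 14664) was at 5.56, 5.52 and 5.94 RPKM in siNC and at 4.40, 5.37 and 3.96 RPKM in siQk. siQk 2 came close to the siNC libraries without overlapping them, and the log2 fold change was -0.46 (SE 0.12, edgeR FDR 0.0228). The call was lost when any library but siQk 2 was left out, with values of -0.44 without siNC 1, -0.49 without siNC 2, -0.46 without siNC 3, -0.44 without siQk 1 and -0.38 without siQk 3, and also with library sizes only (-0.31). Of its exon bases, 27.8% overlap Ccdc24 on the opposite strand, which was at 0.896 to 3.04 RPKM in siNC and at 4.68 to 5.37 RPKM in siQk. The proline carrier Slc6a7 and the neuronal glycine carrier Slc6a5 stayed at or under 0.0071 RPKM. The monoamine carriers Slc6a2, Slc6a3 and Slc6a4, for noradrenaline, dopamine and serotonin, were below the filter, the highest value being 0.205 RPKM for Slc6a2 in siNC 3.

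Slc6a17 (NTT4, a carrier of neutral amino acids on synaptic vesicles, Entrez 229706) was at 0.822, 1.80 and 1.85 RPKM in siNC and rose to 3.13, 3.44 and 4.22 RPKM in siQk. All siQk libraries were higher (log2 fold change 1.13, SE 0.28, edgeR FDR 0.0204), and the call was lost without siQk 2 (1.17) or siQk 3 (0.99). Slc6a19 (B0AT1, the neutral amino acid carrier of gut and kidney epithelium, Entrez 74338) was at 1.68, 0.277 and 2.23 RPKM in siNC and at 0.150, 0.180 and 0.186 RPKM in siQk. siNC 2 was near the siQk libraries and far from the other siNC libraries, at 68 tags against 216 and 653 in siNC 1 and 3. The Slc6a19 log2 fold change was the lowest among the transporters, -3.17, with an SE of 0.72 (edgeR FDR 0.0156). Its call was lost without siNC 1 (-2.97), siNC 3 (-2.67), siQk 1 (-3.07), siQk 2 (-3.19) or siQk 3 (-3.24). Slc6a15 (B0AT2, a carrier of branched-chain amino acids and proline) was at 4.58, 7.24 and 6.95 RPKM in siNC and at 8.83, 11.3 and 8.46 RPKM in siQk, higher in every siQk library but not called (log2 fold change 0.46, SE 0.17, FDR 0.0743).

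The heteromeric exchangers join a Slc3 heavy chain, which brings the complex to the membrane, to a Slc7 light chain that carries the amino acid. Of 10 light-chain genes, 5 were tested, of which 3 were higher and 1 was lower in siQk, while neither heavy chain was called. By the same rule, 13.8% of all tested genes were higher and 17.2% lower. Their summed level was 37.0 to 38.5 RPKM in siNC and 55.5 to 56.3 RPKM in siQk.

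Slc7a6 (y+LAT2, which exchanges cationic for neutral amino acids, Entrez 330836, chr8:106168857-106198706, plus strand) was at 13.7, 15.8 and 15.5 RPKM in siNC and at 23.8, 24.7 and 23.9 RPKM in siQk. Its 3 siQk values were tightly grouped and well above siNC (log2 fold change 0.54, SE 0.06, edgeR FDR 0.00122). Slc7a5 (LAT1, which imports leucine and other large neutral amino acids, Entrez 20539, chr8:121881150-121907694, minus strand) was at 17.2, 14.7 and 16.5 RPKM in siNC and at 25.6, 24.2 and 24.0 RPKM in siQk. These groups were as clearly apart in their ranges, with a log2 fold change of 0.45 (SE 0.09, edgeR FDR 0.0105). Slc7a8 (LAT2, a second large neutral exchanger, Entrez 50934) rose from 0.386, 0.228 and 0.323 RPKM in siNC to 0.957, 0.619 and 0.948 RPKM in siQk. It remained a low transcript (log2 fold change 1.29, SE 0.28, edgeR FDR 0.0133), and the call was lost without siQk 1 (1.18) or siQk 3 (1.19).

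Slc7a11 (xCT, which imports cystine in exchange for glutamate, Entrez 26570) moved the other way. It was at 4.93, 3.95 and 4.26 RPKM in siNC and at 3.18, 3.40 and 3.77 RPKM in siQk. The ranges did not overlap, siQk 3 and siNC 2 being close (log2 fold change -0.50, SE 0.13, edgeR FDR 0.0234). Its call was lost without siNC 1 (-0.36), siQk 1 (-0.45) or siQk 2 (-0.48), and with library sizes only (-0.34). Slc7a10 (Asc-1, an exchanger of small neutral amino acids and D-serine) was at 1.55, 2.05 and 1.64 RPKM in siNC and at 2.47, 2.93 and 2.72 RPKM in siQk, and missed the threshold on P at 0.0135 (log2 fold change 0.48, SE 0.15, FDR 0.0398). It was called without siNC 2 (0.60), with library sizes only (0.63), with DESeq2 (0.47), with no filter (0.50) and at an FDR below 0.05 alone. Of its exon bases, 17.9% overlap Lrp3 on the opposite strand, which was at 15.7 to 19.9 RPKM in siNC and at 23.5 to 27.3 RPKM in siQk, and the part of Lrp3 reads in this value was not tested.

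The heavy chain Slc3a2 (CD98, partner of Slc7a5, Slc7a6, Slc7a8, Slc7a10 and Slc7a11, Entrez 17254) was at 34.2, 31.6 and 40.5 RPKM in siNC and at 38.1, 36.4 and 36.3 RPKM in siQk. The siQk values lay inside the siNC range, and the log2 fold change was -0.09 (95% confidence interval -0.30 to 0.12, FDR 0.453), or 0.059 with library sizes only. Slc3a1 (partner of the kidney cystine light chain) had means of 7.39 RPKM in siNC and 7.72 RPKM in siQk. Its log2 fold change was -0.09 (95% confidence interval -0.34 to 0.16, FDR 0.536). Prepl, on the opposite strand, overlaps 26.5% of the Slc3a1 exon bases. It was at 25.1 to 32.7 RPKM in siNC and at 28.9 to 32.5 RPKM in siQk. For both genes siNC 2 was the lowest library and siNC 3 the highest. The library kit does not mark strand. The part of Prepl reads in the Slc3a1 value, and so the level of Slc3a1 itself, was not tested.

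The cationic amino acid transporters, which bring in arginine, lysine and ornithine, split. Slc7a2 (CAT2, Entrez 11988, chr8:40862396-40922308, plus strand) was at 0.576, 0.727 and 0.499 RPKM in siNC and at 1.79, 1.49 and 2.09 RPKM in siQk. Each siQk library was far above each siNC library, with the highest log2 fold change of the transporters, 1.43 (SE 0.19, edgeR FDR 0.00294). Slc7a3 (CAT3, Entrez 11989) fell from 0.674, 0.639 and 0.696 RPKM in siNC to 0.465, 0.337 and 0.432 RPKM in siQk. Its siNC libraries were nearly equal and all above siQk (log2 fold change -0.85, SE 0.19, edgeR FDR 0.0139). Slc7a1 (CAT1, the most abundant of the group) was not called, at 5.41, 4.54 and 5.75 RPKM in siNC and 6.52, 6.55 and 6.04 RPKM in siQk (log2 fold change 0.13, 95% confidence interval -0.11 to 0.38, FDR 0.345). Slc7a4 and Slc7a14 were not called either, with log2 fold changes of 0.45 and -0.02.

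Sodium-coupled neutral transporters of the Slc38 family carry glutamine, alanine and serine. Of 11 genes 7 were tested, of which 1 was called (14.3%), where 31% of all tested genes were called. Slc38a2 (SNAT2, Entrez 67760, chr15:96687392-96699730, minus strand) was at 50.7, 62.0 and 52.3 RPKM in siNC and at 46.1, 47.8 and 41.0 RPKM in siQk. All siQk libraries were lower (log2 fold change -0.44, SE 0.09, edgeR FDR 0.0126), and the call was lost without siQk 3 (-0.38) and with library sizes only (-0.29). Slc38a10, an intracellular member, was at 26.2, 29.5 and 22.8 RPKM in siNC and at 28.5, 29.9 and 27.8 RPKM in siQk. The values overlapped, with a log2 fold change of -0.02 (95% confidence interval -0.27 to 0.24, FDR 0.91), or 0.14 with library sizes only. The other 5 tested members, among them the lysosomal amino acid sensor Slc38a9 and the glutamine carriers Slc38a1, Slc38a3 and Slc38a7, had log2 fold changes from -0.05 to 0.35 and none was called.

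The tested carriers of the Slc36 family, Slc36a1 and Slc36a4, which move amino acids out of lysosomes or into cells, were not called, though Slc36a1 was without siNC 2. Slc36a4 was at 14.5, 16.2 and 14.1 RPKM in siNC and at 19.7, 17.4 and 21.3 RPKM in siQk, higher in every siQk library (log2 fold change 0.23, 95% confidence interval -0.02 to 0.48, FDR 0.126), and it was called with library sizes only (0.38). Slc43a2 (LAT4, an exporter of large neutral amino acids) was at 5.33, 5.49 and 4.07 RPKM in siNC and at 4.92, 4.89 and 5.01 RPKM in siQk, with overlapping ranges (log2 fold change -0.16, 95% confidence interval -0.49 to 0.16, FDR 0.382). It was called without siNC 3 (-0.31).

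Qki proteins bind RNA at the sequence ACUAAC or close forms of it, so ACTAAC and ACTAAT were looked for on the transcript strand in the 3′UTR of every gene, taking the longest one annotated. Of the 6 transporters whose calls held under every alternative tried, 4 had a site, and their ACTAAC sites are shown together with that of Slc6a6 and the ACTAAT sites of Slc7a6, which had no ACTAAC, with 10 bases on either side and the motif in capitals (mm10, 5′ to 3′ on the strand of the gene).
Slc1a3, chr15:8634255-8634280, minus strand: tattttttatACTAACcatttcttac
Slc1a2, chr2:102784369-102784394, plus strand: tgtcacatacACTAACtccaggaacc
Slc1a2, chr2:102787123-102787148, plus strand: ttgggttcacACTAACactctgaatc
Slc6a6, chr6:91755087-91755112, plus strand: cctgctgtttACTAACgttagattct
Slc7a2, chr8:40917798-40917823, plus strand: tatagaccagACTAACcttgaactca
Slc7a6, chr8:106198184-106198209, plus strand: ggaagtggtcACTAATtttctgaaag
Slc7a6, chr8:106198397-106198422, plus strand: aacggtagaaACTAATtctggtgatc
At least 1 such site was present in 4 of the 9 genes that fell (Slc1a2, Slc1a3, Slc6a6 and Slc7a11), in 2 of the 6 that rose (Slc7a2 and Slc7a6) and in 9 of the 20 that were not called. Over all tested genes with a 3′UTR, 36.2% held one, and 42.9% of the tested transporters did. Per kilobase of 3′UTR there were 0.334 sites in the genes that fell, 0.316 in those that rose, 0.299 in those not called and 0.344 over all tested genes. A match of these letters is a description of the sequence, and binding was not measured.

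Several of these carriers are textbook genes of the amino acid response, in which the factor ATF4 binds an element that contains TGATGNAA. The element was searched on both strands in the window from 250 bases before to 50 bases after each RefSeq start (GRCm38.p6). It is shown in capitals for the tested transporters that hold it, and the 2 windows of Slc7a11 overlap.
Slc7a11, chr3:50443661-50443690, minus strand: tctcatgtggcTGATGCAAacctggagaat
Slc7a11, chr3:50443642-50443671, minus strand: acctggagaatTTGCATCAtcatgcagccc
Slc1a4, chr11:20332699-20332728, minus strand: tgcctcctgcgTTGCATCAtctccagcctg
Of 41 transporters with a window in the table, 3 held the element (7.32%, the other being Slc7a7, which was not tested), against 4.51% of all genes with a window. Slc7a11 fell, and Slc1a4 was higher in every siQk library without being called. No match says only that the letters are not in this window.

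Enzymes that make or use the transported molecules were read from a list of 55 genes, of which 54 are in the files and 48 were tested. The test called 17 of them (35.4%), 5 higher and 12 lower in siQk, where 31% of all tested genes were called, 13.8% higher and 17.2% lower. The median log2 fold change of the enzymes was -0.09, and that of all tested genes 0.01. Both enzymes of creatine synthesis fell, as did the creatine transporter. Gatm, the first enzyme of creatine synthesis, was at 100, 133 and 116 RPKM in siNC and at 41.9, 31.4 and 47.5 RPKM in siQk (log2 fold change -1.68, SE 0.17, edgeR FDR 0.00117). Gamt, the second enzyme, was at 19.2, 24.3 and 16.1 RPKM in siNC and at 6.92, 5.65 and 7.11 RPKM in siQk (log2 fold change -1.74, SE 0.18, edgeR FDR 0.00134). For both enzymes all siQk libraries were far below siNC, a wider gap than that of Slc6a8, whose RPKM ranges overlapped.

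On the taurine side, the synthesis gene Cdo1 and the transporter Slc6a6 went opposite ways, while the synthesis gene Csad was not called. Cdo1 (cysteine dioxygenase, the first step from cysteine to taurine) was at 10.5, 8.39 and 9.12 RPKM in siNC and rose to 37.4, 40.1 and 40.1 RPKM in siQk (log2 fold change 1.91, SE 0.12, edgeR FDR 0.0004). Csad, the next enzyme, was not called at 45.7, 38.9 and 29.3 RPKM in siNC and 35.3, 34.5 and 44.3 RPKM in siQk (log2 fold change -0.16, 95% confidence interval -0.63 to 0.32, FDR 0.561). Cdo1 was thus higher and Slc6a6 lower in every siQk library than in any siNC library.

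**Figure D4:**
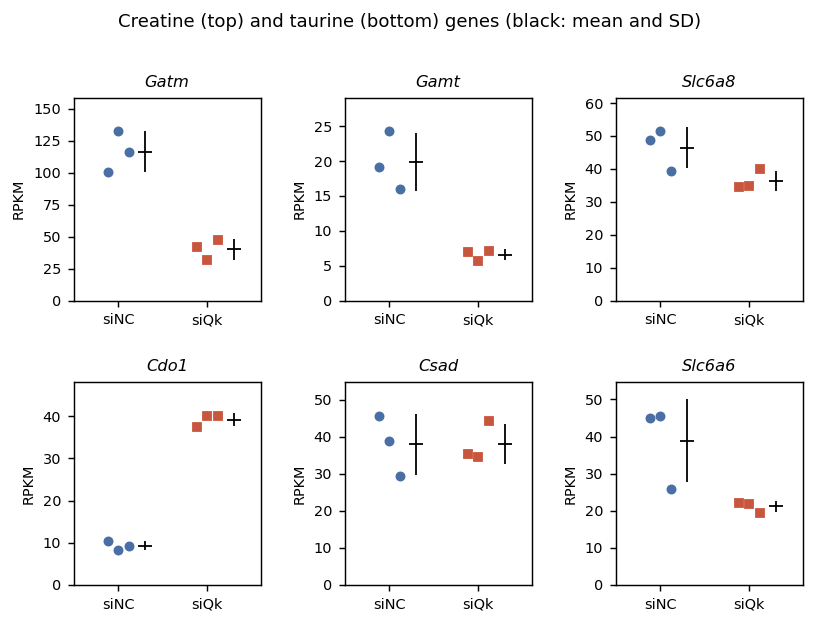
RPKM per library of creatine genes (Gatm, Gamt and the transporter Slc6a8, top) and taurine genes (Cdo1, Csad and the transporter Slc6a6, bottom), on linear axes that start at 0, with circles for siNC, squares for siQk and black bars for the mean and SD (n = 3). Gatm and Gamt are lower in all siQk libraries, Cdo1 is higher in all of them, and Csad and Slc6a8 overlap between groups.

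Of the other called enzymes of the list with an average log2 CPM over 3, Ddc (which makes dopamine and serotonin from their precursors) was the lowest, at 25.8, 11.7 and 9.44 RPKM in siNC and at 1.18, 1.61 and 2.82 RPKM in siQk (log2 fold change -3.23, SE 0.52, edgeR FDR 0.00498). Maoa (monoamine oxidase) and Glud1 (glutamate dehydrogenase) also fell, with log2 fold changes of -0.65 and -0.61. Shmt1 (serine and glycine conversion) had a log2 fold change of 0.99 and Aldh18a1 (proline synthesis) of 0.43. The call of Shmt1 was lost without siNC 2 (0.90), siNC 3 (0.88), siQk 1 (0.83) or siQk 2 (0.96), and that of Aldh18a1 without siQk 1 (0.40).

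Under all 13 alternative settings, 6 transporter calls held. The settings were other normalizations, filters, tests and thresholds, a replicate block and the omission of each library in turn. They were Slc1a2, Slc1a3 and Slc7a3 among the lower genes and Slc7a2, Slc7a5 and Slc7a6 among the higher genes. The other 9 calls kept their direction under all 13 and were lost under 2 (Slc6a17, Slc7a8 and Slc38a2) to 7 (Slc6a9) of them.

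**Figure D5:**
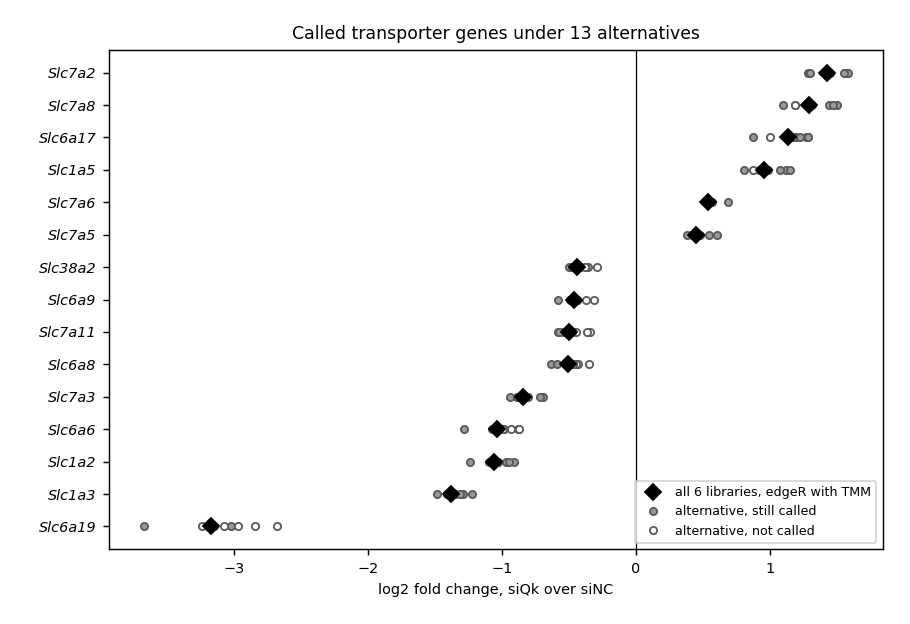
The log2 fold change of each of the 15 called transporter genes, as a diamond for the reported fit and as circles for the 13 alternatives, filled where still called and open where not. The open circles are absent for Slc1a2, Slc1a3, Slc7a2, Slc7a3, Slc7a5 and Slc7a6, and all circles of a gene lie on the same side of 0.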

How the data were processed

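mRNA-seq of mOPCs was analysed in 6 libraries, siNC 1 to 3 and siQk 1 to 3, grouped by their labels. The authors aligned paired-end poly-A reads (TruSeq RNA Sample Prep Kit v2) to mm10 with OLego and counted genes with Quantas (versions and annotation not given in the sources used here). They deposited expected counts (tag numbers, with decimals in 23.1 to 26.2% of genes) and RPKM, recomputed here from the same tag numbers, exon lengths and totals to within rounding. Reads of paralogs and of overlapping genes are uncertain to the degree that the counting split them.

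After rounding the expected counts, every gene whose average logCPM was over 0 entered the fit in edgeR 4.0.16 under R 4.3.3, by quasi-likelihood, with TMM factors and no term but the group. A gene was called at P below 0.01 and Benjamini-Hochberg FDR below 0.1 over all tested genes. SE is the absolute log2 fold change over the square root of F. The script was tested on simulated counts. Named transporters were all called ones and, of those not called, the most abundant per role group, and of the enzymes up to 5 called per direction with logCPM over 3. Csad, Gfap, Slc1a7, Slc3a1 and others outside this rule were chosen after their values were seen. Of the tested transporters 1 is counted but not reported here by itself. Members and lists were chosen with earlier results of these data known. DESeq2 1.42.0 and other alternatives are reported at the end. Replicate numbers did not pair the libraries. Gene positions and 3′UTRs are from GENCODE on GRCm38, and promoter windows from RefSeq. No 2 replicates differed by as little as sampling noise (chi-square per degree of freedom at least 44.7).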

Additional observations from a re-analysis of the deposited data

How the results depend on the processing

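The alternatives numbered 13. Of the 15 transporter calls, all 15 were kept with DESeq2 (18 called), RLE factors (15), the filterByExpr filter (16 of 40 tested), no filter (18 of 58) and an FDR threshold of 0.05 in place of both thresholds (17). With library sizes only, 11 were kept and 4 were new, the calls were 10 higher and 5 lower, and the median log2 fold change was 0.14. The median was -0.0027 with filterByExpr. Leaving out 1 library gave 9 to 16 calls, 4 to 7 higher and 4 to 9 lower, a median of -0.030 to 0.028, and 11 to 16 enzyme calls, while the share called over all genes was 19.8 to 29.7% (31% with all libraries). The 9 calls (25.7% of the tested transporters) came without siQk 1, siQk 2 or siQk 3, where 19.8, 21.5 and 24.0% of all genes were called, the 4 lower calls without siNC 1, and the 11 enzyme calls, against 17, without siQk 1 or siQk 3. Same-numbered libraries had correlations of deviations of -0.052, -0.121 and -0.33, so the numbers did not pair them. With a replicate block, 11 transporters were called, all among the 15, 6 higher and 5 lower, with 22.4% of all genes called, and Slc6a8, Slc6a9, Slc6a19 and Slc7a11 were not called. Among the named genes directions turned for 3, none of them called: Slc1a1 (0.013 with library sizes only, -0.40 to 0.065 on leaving out 1 library, above 0 without siNC 3), Slc3a2 (0.059 with library sizes only) and Slc38a10 (0.14 with library sizes only, 0.0063 with no filter, and -0.13 to 0.063 on leaving out 1 library, above 0 without siNC 1, siNC 2 or siQk 3). The cause of these shifts was not tested. Too low to test were 24 members, 6 tested members had a siNC mean under 1 RPKM, and with 3 libraries a group a missed threshold does not show equal levels.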

Other observations

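A few genes with similar symbols fall outside the symbol rule. Slc6a20a and Slc6a20b, proline carriers, stayed at or under 0.0363 and 0.0494 RPKM and were not tested. Slc7a6os, a gene named for lying opposite Slc7a6, was at 8.57, 8.79 and 8.31 RPKM in siNC and at 9.40 to 10.05 RPKM in siQk, and it was not called (log2 fold change 0.02, SE 0.09, edgeR FDR 0.886).

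Of 7 vesicular transmitter transporters, 2 were tested and 1 was called, where 31% of all tested genes were called. Slc18a3, the vesicular acetylcholine carrier, was at 0.541, 1.58 and 0.590 RPKM in siNC and at 0.176, 0.115 and 0.193 RPKM in siQk, lower in every siQk library (log2 fold change -2.61, SE 0.48, edgeR FDR 0.00765). Slc18a2, the vesicular monoamine carrier, was not called (log2 fold change -0.22).

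The other marker lists were read in the same fit. Of 10 tested neuron markers, 2 (20%) were called higher in siQk and none lower, and 6 of the 10 had a log2 fold change above 0. Over all tested genes 31% were called, 13.8% higher and 17.2% lower. Of 10 microglia markers 2 were tested and 1 was called lower, and of 10 vascular and fibroblast markers 1 was tested and none was called.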
